A study of Mus musculus with 8 samples.

Results

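Translation factors are the proteins that bring a ribosome to an mRNA, place it at the start codon and then move it along the message. They were taken here as all genes whose symbol begins with Eif and a digit or with Eef1 or Eef2. This rule found 70 genes among the 25489 symbols of the series, of which 65 were listed in RNA-seq and 70 in Ribo-seq. By role, 40 are initiation factors, 8 are elongation factors, 4 are eIF2 kinases, 4 are eIF4E-binding proteins, 7 act on the elongation factors (the eEF2 kinase and lysine methyltransferases) and 7 are paralogs or genes of other functions. Liver mRNA of C57BL/6 mice was sequenced after poly(A) selection (RNA-seq), and Ribo-seq sequenced the ribosome-protected fragments (RPFs, or footprints). The HF group had a diet with 45% of its calories from fat from week 8 on. The HB group had the same diet with betaine in its drinking water at 2% (w/v), and no group of these files was without the fat diet. All animals were wild type, the labels give their age as postnatal week 25, and the methods state that they were males. The labels give 6 mice per group and describe pooled RNA preparations, while the methods describe 2 chosen mice per group. Each group had 2 libraries per assay (HF1, HF2, HB1 and HB2), so that p-values measure the spread between libraries, which may be technical.

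Initiation begins when eIF2 carries the initiator tRNA to the small ribosomal subunit, where eIF1, eIF1A, eIF3 and eIF5 hold it in a scanning complex. The cap-binding complex eIF4F, made of eIF4E, eIF4A and eIF4G, recruits this complex to the mRNA, and the eIF4E-binding proteins compete with eIF4G for eIF4E until mTORC1 phosphorylates them. The eIF2 kinases phosphorylate eIF2 alpha, which then blocks its exchange factor eIF2B and lowers initiation on most mRNAs. In elongation, eEF1A delivers the aminoacyl-tRNAs, the eEF1B subunits recharge eEF1A with GTP, eEF2 moves the ribosome by a codon, and eIF5A helps it over stretches that are hard to join. Many mRNAs of elongation factors carry a run of pyrimidines at their very 5′ end, the TOP motif, which ties their translation to mTORC1.

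The starts of these genes were read from RefSeq promoters on GRCm38.p6, which hold 54 of the 70 genes. The search asked for a C followed by at least 6 bases that are each C or T, on the sense strand, within 30 bases on either side of the annotated start. Of the 54 genes, 20 held such a tract (37%), against 29.7% of all 27025 genes in the promoter table. Among the elongation factors tested in RNA-seq, 2 of the 4 with a promoter held one, and among the initiation factors 11 of 32. Windows of 24 bases are shown for 6 genes, since they mark the start of the most abundant elongation factors, of subunits of eIF3, and of the X- and Y-linked copies of the eIF2 gamma subunit. The capitals mark the tract, which begins 5 bases before the annotated start in Eef1a1, 15 after it in Eef2, 4 before it in Eif3f, 20 before it in Eif3m, 1 before it in Eif2s3x and 1 after it in Eif2s3y.
Eef1a1, chr9:78481713-78481736, minus strand: ggctccgCCCTCTTCCCgagggtg
Eef2, chr10:81176637-81176660, plus strand: gtcagcggtCTCTTCCgccgcagc
Eif3f, chr7:108934406-108934429, plus strand: ctaggCTCTCTCTCTTTCTCggca
Eif3m, chr2:105017031-105017054, minus strand: ggcaccgCTCTCTTTTCCggtcgg
Eif2s3x, chrX:94212635-94212658, minus strand: cattttCCTTTTCTCTCCgagcaa
Eif2s3y, chrY:1010590-1010613, plus strand: cagccaCTTCCTTCTTTCgtgagc
These letters are a description of the annotated start and not evidence of a working motif. Among the 11 genes that rose in mRNA, 6 had a promoter in the table, and 1 of these, Eef2, held the tract.

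Values are RPKM (reads per kilobase of gene model and per 1e6 mapped reads), so that levels can be compared between genes. Library totals, recovered from the steps between low RPKM values, ran from 11661207 to 22543471 reads in RNA-seq but only from 141890 (HB2) to 1056546 (HF2) in Ribo-seq. For a gene of 1 kb, 3 reads were worth 0.133 to 0.257 RPKM in RNA-seq and 2.84 to 21.1 RPKM in Ribo-seq, and this floor covers counting error only. Hepatocyte markers were high in all libraries, with summed mRNA levels of 47501 and 49620 RPKM in HF and 54425 and 54554 RPKM in HB, and none of the 6 passed the test. Cyp2e1, 1 of them, was higher in both HB libraries (0.92, adjusted p = 0.0518 by limma). Of the other cell type markers, 3 of 5 tested erythroid genes were higher in HB mRNA (summed level 524 to 675 RPKM in HF and 738 to 2249 RPKM in HB), 2 of 6 macrophage genes were higher (Cd5l and Marco; summed level 105 to 115 RPKM in HF and 108 to 121 RPKM in HB), and 1 of 5 endothelial genes and the 1 leukocyte gene tested were lower (summed levels 54.2 to 64.9 against 53.7 to 63.4 RPKM, and 5.58 to 7.50 against 2.60 to 2.93 RPKM). None of 5 stellate genes and 1 cholangiocyte gene tested passed. In footprints the macrophage sum was 132 to 178 RPKM in HF and 95.4 to 123 RPKM in HB. The endothelial sum was 110.1 to 130 RPKM against 58.9 to 109.6 RPKM, and the stellate sum 103 to 123 RPKM against 81.55 to 91.9 RPKM. The cholangiocyte sum was also lower in both HB libraries but near the floor, and the hepatocyte, erythroid and leukocyte sums overlapped. The part of these markers in the results on translation factors was not tested.

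In mRNA more translation factors were called higher than lower in HB, while over all genes more were called lower, and the elongation factors had the highest class median. Of 62 members with a mean of at least 1 RPKM, 11 were higher in HB and 3 lower at an adjusted p under 0.05 (limma on log2(RPKM + 1), Benjamini-Hochberg over all genes tested), and 48 did not pass. Across all 10687 genes tested, 7.92% were called higher and 19.1% lower. The 62 members had a median log2 fold change of 0.24, against −0.19 for all genes, and 41 of them (66.1%) had a positive value against 39.8% of all genes. Both HB libraries were above both HF libraries in 30 members and below in 12, beside 24.8% and 43.3% of all genes. The 11 genes that rose were Eif4ebp2, Eif5a, Eif6, Eif3i, Eef2, Eif1ax, Eef1akmt1, Eif4h, Eif4ebp1, Eef1g and Eef1b2. The 3 genes that fell were Eif5b, Eif4g3 and Eif4enif1. The study's own thresholds for mRNA, a log2 fold change past 1 in size and an unadjusted p under 0.001, left 4 members higher and 2 lower, beside 2.30% and 6.56% of all genes. With libraries shifted to a common median, 18 members were higher and 2 lower, beside 14.2% and 9.72% of all genes, and the median of all genes moved from −0.19 to 0.08. Without a filter on low values 16758 genes entered the adjustment, no gene passed and the 14 members had adjusted p-values of 0.0539 to 0.0955, all still at an unadjusted p under 0.05. Leaving out HF1, HF2, HB1 or HB2 gave 4, 4, 8 and 18 members higher and 1, 4, 7 and 5 lower, with the lone library of a group assumed to vary like the other group. Of all genes, these fits called 3%, 4.80%, 6.76% and 12.6% higher and 9.31%, 13.4%, 16.1% and 22.3% lower. Only Eif5a, Eif6, Eif3i, Eif4ebp2 and Eif5b were called with each library left out in turn.

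**Figure D1:**
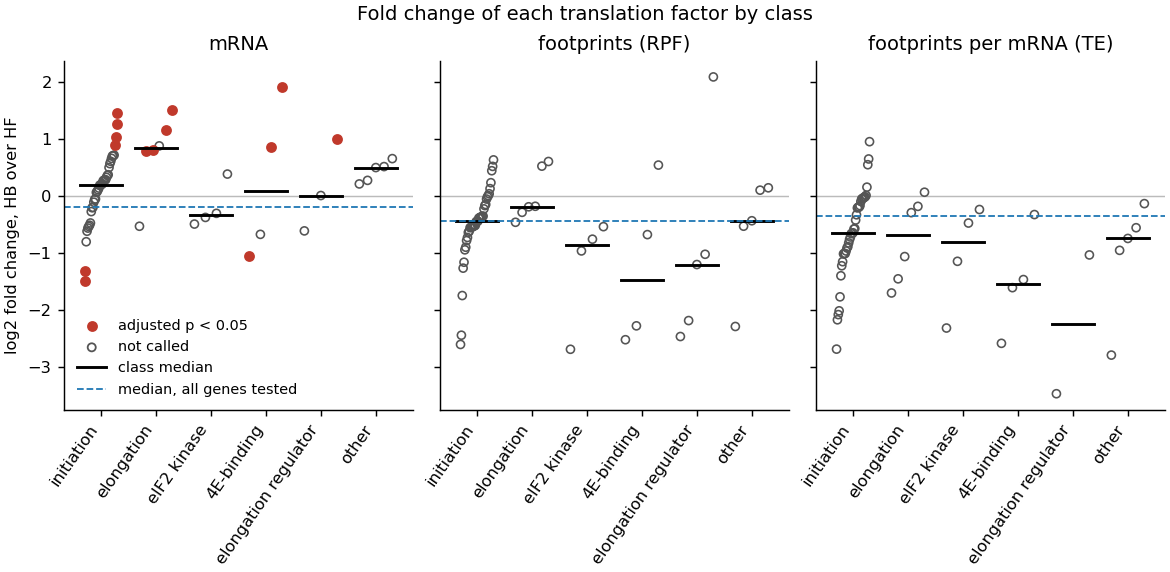
Each point is 1 gene, placed by its class on the x axis and by its log2 fold change (HB over HF) on the y axis, in mRNA, footprints and footprints per mRNA, with class medians as black lines and the median of all genes as a dashed line. In mRNA the 6 elongation factors have a median of 0.85 and 4 of them are called, while no gene is called in footprints or in their ratio, where most points lie below 0.

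Among the elongation factors, 4 of the 6 tested rose in mRNA (66.7%, beside 7.92% of all genes) and none fell. Eef2, which encodes the translocase eEF2 (chr10:81176631-81182498 on GRCm38), was at 196 and 197 RPKM in HF and at 422 and 465 RPKM in HB. The HB libraries were both above the HF libraries, by 1.17 ± 0.26 on the log2 scale (SE, adjusted p = 0.0126 by limma). Without HF1 or HF2 this call was lost. Eif5a (chr11:69916714-69921958), once named an initiation factor and now known to act in elongation, was at 84.6 and 102 RPKM in HF and at 283 and 252 RPKM in HB. Its mRNA rose by 1.51 ± 0.26 (adjusted p = 0.00631 by limma), the largest fold change of the 6 elongation factors tested. The eEF1B subunits Eef1g and Eef1b2 rose less. Eef1g was at 49.2 and 53.2 RPKM in HF and at 97.0 and 85.3 RPKM in HB (0.82 ± 0.25, adjusted p = 0.0369 by limma). Eef1b2 was at 33.7 and 38.6 RPKM in HF and at 66.1 and 60.0 RPKM in HB (0.79 ± 0.25, adjusted p = 0.0413 by limma). Both calls were lost without HF1, HF2 or HB1, and that of Eef1b2 also with libraries scaled to a common sum.

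Eef1a1 (chr9:78478449-78489151), the eEF1A of most tissues, was the most abundant member in both assays. Its mRNA was at 903 and 1051 RPKM in HF and at 2154 and 1501 RPKM in HB. The groups did not overlap, but the difference of 0.88 ± 0.31 on the log2 scale did not pass (adjusted p = 0.0616 by limma). It passed without HB2 (adjusted p = 0.00752), with a replicate block (adjusted p = 0.0261), with a common median (adjusted p = 0.0297), without the variance trend (adjusted p = 0.0385) and with voom on recovered reads (adjusted p = 0.0417). The gene has many processed pseudogenes, so that its count depends on how the mapping assigned shared reads. Eef1d, the other eEF1B exchange subunit, was the exception of the class. It was at 80.5 and 92.3 RPKM in HF and at 48.2 and 73.3 RPKM in HB, and this difference did not pass (−0.53 ± 0.28, adjusted p = 0.187 by limma). The tissue-restricted paralogs Eef1a2 and Eif5a2 were at or below 0.0838 RPKM in every RNA-seq library and were not tested.

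In footprints none of the 6 elongation factors was called, and the values of the 4 that rose in mRNA went in both directions. Eef2 footprints were at 366 and 325 RPKM in HF and at 271 and 296 RPKM in HB, lower in both HB libraries where the mRNA was higher (−0.28 ± 0.25, unadjusted p = 0.315 by limma). Eif5a footprints were at 126 and 156 RPKM in HF and at 134 and 113 RPKM in HB, with overlapping groups (−0.19 ± 0.28, unadjusted p = 0.534 by limma). Eef1a1 footprints were at 1839.8 and 1982 RPKM in HF and at 1505 and 1895 RPKM in HB, also overlapping (−0.18 ± 0.31, unadjusted p = 0.593 by limma). These 3 genes had the reads to show a level, with 481 to 3746 reads per library in Eef1a1, 130 to 1064 in Eef2 and 22 to 225 in Eif5a. Eef1g and Eef1b2 were the members of the class with higher footprints in both HB libraries. Eef1b2 was at 44.0 and 58.3 RPKM in HF and at 66.4 and 91.1 RPKM in HB (0.61 ± 0.33, unadjusted p = 0.128 by limma), and Eef1g at 32.9 and 47.8 RPKM in HF and at 67.1 and 49.5 RPKM in HB (0.53 ± 0.36, unadjusted p = 0.202 by limma). Neither passed the test.

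**Figure D2:**
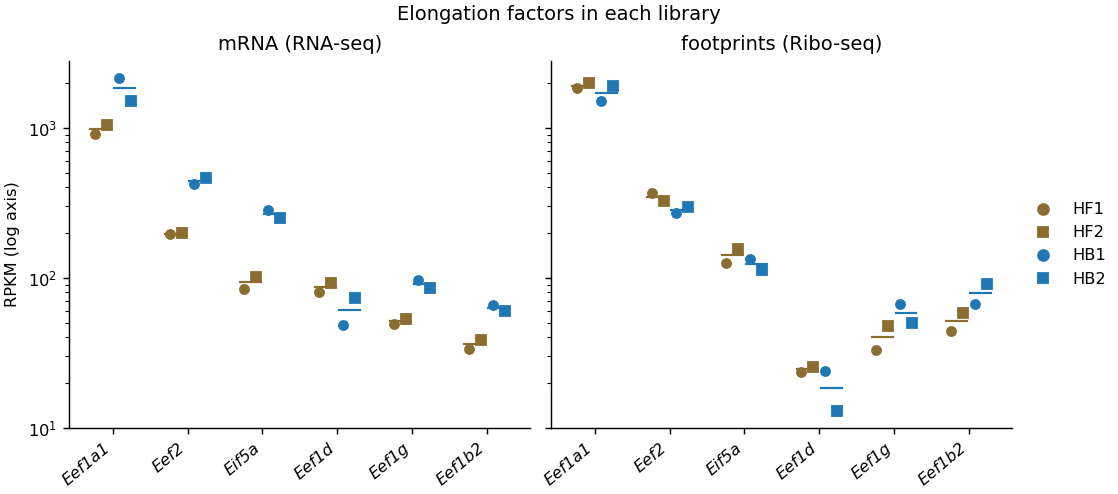
RPKM on a log axis of the 6 tested elongation factors in each library (points) with the group mean of 2 libraries (lines), in mRNA on the left and footprints on the right. Eef2 mRNA is at 196 and 197 RPKM in HF and at 422 and 465 RPKM in HB, while its footprints lie between 271 and 366 RPKM in all 4 libraries.

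The balance of the classes was compared as the summed RPKM of the 8 elongation factors over that of the 40 initiation factors. In mRNA this ratio was 0.850 and 0.982 in HF and 1.72 and 1.50 in HB. The mean rose from 0.916 ± 0.0931 (SD, n = 2) to 1.61 ± 0.158 (SD, n = 2), while the summed initiation factors moved only from 1584 and 1562 RPKM to 1781 and 1625 RPKM. In footprints the ratio was 1.36 and 1.44 in HF and 1.37 and 1.73 in HB, so that the groups overlapped. An exact two-sided permutation test of 2 libraries against 2 cannot go below p = 0.333. At that value it only restates that the groups did not overlap, so that it cannot set mRNA apart from footprints. The mRNA ratio was at exact p = 0.333 and the footprint ratio at exact p = 0.667. Eef1a1 made up 61.6% to 70.2% of the elongation sum in mRNA and 72.8% to 77.1% in footprints. Without Eef1a1 the mRNA ratio was 0.280 and 0.309 in HF and 0.514 and 0.576 in HB, and the footprint ratio was 0.332 and 0.340 in HF and 0.372 and 0.396 in HB. The footprint ratio without Eef1a1 was then also higher in both HB libraries (exact p = 0.333 by the same permutation test), by a difference of 0.0479 against 0.250 in mRNA.

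**Figure D3:**
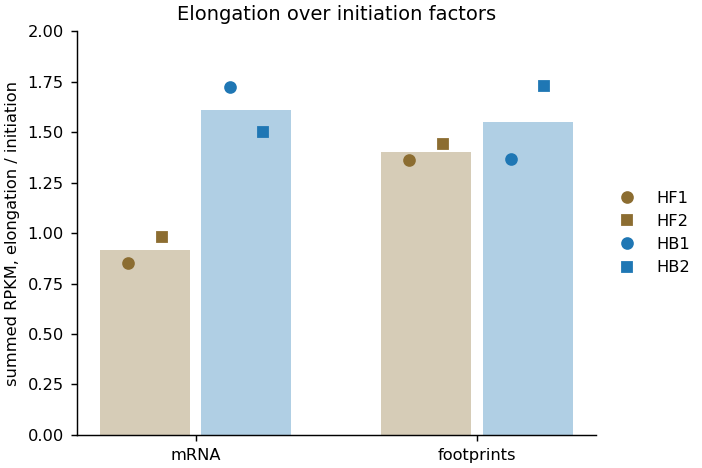
Summed RPKM of elongation factors divided by that of initiation factors, with a point per library and a bar at the mean of each group. In mRNA the HF libraries are at 0.850 and 0.982 and the HB libraries at 1.72 and 1.50, while in footprints HB1 (1.37) lies beside the HF libraries (1.36 and 1.44).

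Among the initiation factors, of 40 tested, 4 rose (10.0%, beside 7.92% of all genes), 2 fell (5.00%, beside 19.1%) and 34 did not pass, and their median log2 fold change was 0.20. The difference from the elongation factors was not tested. Genes of late initiation moved in opposite directions. Eif6 (chr2:155819832-155826925), whose protein keeps the large ribosomal subunit from joining too early, was at 13.2 and 13.3 RPKM in HF and at 41.5 and 35.5 RPKM in HB. It rose by 1.47 ± 0.24 on the log2 scale (adjusted p = 0.00579 by limma), the smallest p of any member. Eif5b (chr1:37998010-38055579), whose GTPase joins the ribosomal subunits, was at 20.7 and 15.9 RPKM in HF and at 6.14 and 5.55 RPKM in HB. It fell by 1.48 ± 0.26 on the log2 scale (adjusted p = 0.00633 by limma). Eif5, the GTPase activator of eIF2 and the most abundant of these 3, was at 66.8 and 53.1 RPKM in HF and at 48.8 and 35.3 RPKM in HB, without passing (−0.51 ± 0.27, adjusted p = 0.188 by limma).

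Of the 14 eIF3 genes, which form the large scaffold of the scanning complex, only Eif3i passed. This is 1 called higher and 0 lower, beside 7.92% and 19.1% of all genes tested. Eif3i was at 24.0 and 25.5 RPKM in HF and at 65.6 and 56.5 RPKM in HB (1.27 ± 0.25, adjusted p = 0.00842 by limma). The other 13 had log2 fold changes from −0.47 in Eif3a to 0.72 in Eif3m, and in 7 of the 14 both HB libraries were above both HF libraries, beside 24.8% of all genes tested. The most abundant, Eif3h, was at 74.2 and 92.1 RPKM in HF and at 91.0 and 102 RPKM in HB, which overlapped. Eif3a, the largest subunit, was at 25.3 and 23.3 RPKM in HF and at 23.3 and 12.7 RPKM in HB, with HB2 the low library (−0.47 ± 0.31, adjusted p = 0.273 by limma). Without HB1, where HB2 stands alone for its group, Eif3a was called lower (−0.88, adjusted p = 0.0310). The median over the 14 subunits was 0.20 on the log2 scale.

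Among the 8 genes of eIF4F and its helpers, 1 rose and 1 fell, beside 7.92% higher and 19.1% lower over all genes. The scaffold paralog Eif4g3 was at 27.5 and 22.6 RPKM in HF and at 8.90 and 9.91 RPKM in HB and fell (−1.32 ± 0.25, adjusted p = 0.00779 by limma), a call that was lost without HF1. Eif4g1, the main scaffold, was at 67.0 and 58.0 RPKM in HF and at 82.4 and 70.8 RPKM in HB and did not pass (0.29 ± 0.25, adjusted p = 0.414 by limma), nor did the third paralog Eif4g2 (0.20 ± 0.32, adjusted p = 0.660 by limma). The difference between the paralogs was not tested. The helicase Eif4a1, the most abundant of this group, was at 174 and 169 RPKM in HF and at 179 and 152 RPKM in HB, with overlapping groups. Eif4h, a helper of that helicase, was at 24.8 and 29.7 RPKM in HF and at 57.5 and 45.8 RPKM in HB and rose (0.89 ± 0.26, adjusted p = 0.0314 by limma). This call was lost without HF1, HF2 or HB1. Eif4b, the other helper, was lower in both HB libraries, at 46.1 and 43.4 RPKM against 69.5 and 68.7 RPKM, and did not pass (adjusted p = 0.0865 by limma). The cap-binding protein gene Eif4e itself was at 6.09 and 4.24 RPKM in HF and at 8.35 and 4.90 RPKM in HB (0.29 ± 0.30, adjusted p = 0.505 by limma).

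The scanning factors were led by Eif1, which guards start codon choice, at 287 and 311 RPKM in HF and 307 and 354 RPKM in HB, with overlapping groups. Eif1ax, the X-linked gene of eIF1A, was at 8.89 and 9.59 RPKM in HF and at 20.9 and 19.1 RPKM in HB and rose (1.04 ± 0.24, adjusted p = 0.0152 by limma), a call lost without HF1 or HF2. Its autosomal paralog Eif1a was at 13.2 and 12.9 RPKM in HF and at 11.3 and 6.65 RPKM in HB, and did not pass (−0.53 ± 0.29, adjusted p = 0.192 by limma). These near-identical genes may share reads, so that the split between them depends on the mapping.

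On the eIF2 axis none of 4 eIF2 subunit genes, 5 eIF2B genes and 4 eIF2 kinase genes passed in mRNA. Over all genes, 7.92% were called higher and 19.1% lower. Eif2s1, which encodes the eIF2 alpha subunit that the kinases phosphorylate, was at 4.76 and 5.23 RPKM in HF and at 11.2 and 5.49 RPKM in HB, where only HB1 stood clearly above HF (0.57 ± 0.32, adjusted p = 0.206 by limma). Without HB2 it was called higher (1.03, adjusted p = 0.0124). Eif2s3y, the Y-linked gamma subunit, had the highest mean mRNA level of the complex, at 44.6 and 35.5 RPKM in HF and 32.3 and 15.5 RPKM in HB (−0.80 ± 0.34, adjusted p = 0.108 by limma), and it was called lower without HB1 (−1.31, adjusted p = 0.00943), with a replicate block (adjusted p = 0.0443) and with the crossed block (adjusted p = 0.0450). Its X-linked partner Eif2s3x was at 9.20 and 8.51 RPKM in HF and at 21.3 and 9.17 RPKM in HB, with HB1 high and HB2 among the HF values. Eif2b5, the catalytic subunit of eIF2B, was at 9.96 and 9.86 RPKM in HF and at 13.3 and 11.3 RPKM in HB (0.28 ± 0.25, adjusted p = 0.413 by limma). Eif2b4 was the most abundant eIF2B gene, between 19.0 and 26.9 RPKM in all 4 libraries.

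Of the eIF2 kinases, Eif2ak1, the heme-regulated kinase HRI, had the most mRNA, at 11.4 and 11.6 RPKM in HF and 16.9 and 14.0 RPKM in HB. The HB libraries were above the HF libraries, but the difference did not pass (0.39 ± 0.25, adjusted p = 0.263 by limma). The other kinases were low and had negative fold changes. Eif2ak3, the kinase PERK of the endoplasmic reticulum, was at 3.29 and 3.38 RPKM in HF and at 2.72 and 2.01 RPKM in HB. Eif2ak4, the amino acid sensor GCN2, was at 3.03 and 1.96 RPKM in HF and at 1.46 RPKM in both HB libraries. Eif2ak2, the double-stranded RNA sensor PKR, was at 2.44 and 2.97 RPKM in HF and at 2.72 and 1.42 RPKM in HB, with overlapping groups. Their adjusted p-values by limma were 0.279, 0.172 and 0.437.

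The eIF4E-binding genes changed in both directions, with 2 of 4 higher and 1 lower, beside 7.92% and 19.1% of all genes. Eif4ebp2 (chr10:61428491-61452661) had the largest rise of any member. It was at 2.26 and 2.18 RPKM in HF and at 18.0 and 6.72 RPKM in HB, which differed from each other by more than the HF libraries did (1.91 ± 0.38, adjusted p = 0.00904 by limma). Eif4ebp1, the most abundant of the family over the 4 libraries, was at 35.1 and 30.4 RPKM in HF and at 49.8 and 73.7 RPKM in HB (0.87 ± 0.28, adjusted p = 0.0432 by limma). This call was lost without HF1, HF2 or HB2 and with voom on recovered reads. Eif4ebp3 was at 65.6 RPKM in HF1 but at 30.6 RPKM in HF2 and at 25.1 and 30.9 RPKM in HB, so that HF1 alone stood apart (−0.67 ± 0.35, adjusted p = 0.177 by limma). Without HF2, where HF1 stands alone, it was called lower (−1.21, adjusted p = 0.0377). Eif4enif1, which carries eIF4E into the nucleus and holds repressed mRNAs, fell from 14.1 and 10.1 RPKM to 5.60 and 4.87 RPKM (−1.06 ± 0.26, adjusted p = 0.0187 by limma), a call lost without HF1 and with a common median.

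Footprints of the binding proteins told a different order of levels. Eif4ebp2 was at 101 and 80.0 RPKM in HF and at 56.6 and 55.2 RPKM in HB, the highest of the family in footprints and the lowest in HF mRNA. Both HB libraries were lower where the mRNA was higher, and the footprint difference did not pass (−0.68 ± 0.29, unadjusted p = 0.0672 by limma). It rested on 70, 151, 26 and 14 reads in HF1, HF2, HB1 and HB2. Eif4ebp1 footprints were at 15.8 and 16.4 RPKM in HF and at 15.9 and 35.9 RPKM in HB, with 4 and 5 reads behind the HB values. Eif4enif1 had 7 and 18 reads in HF and none in HB, at 4.88 and 4.61 RPKM against 0, which is at least 1.07-fold lower against 3 reads per library. The sum of Eif4ebp1, Eif4ebp2 and Eif4ebp3 over Eif4e in mRNA was 16.9 and 14.9 in HF and 11.1 and 22.7 in HB, so that the groups overlapped. In footprints it was 10.8 and 9.74 in HF and 4.64 and 21.6 in HB, where the Eif4e value of HB2 rested on 3 reads.

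**Figure D4:**
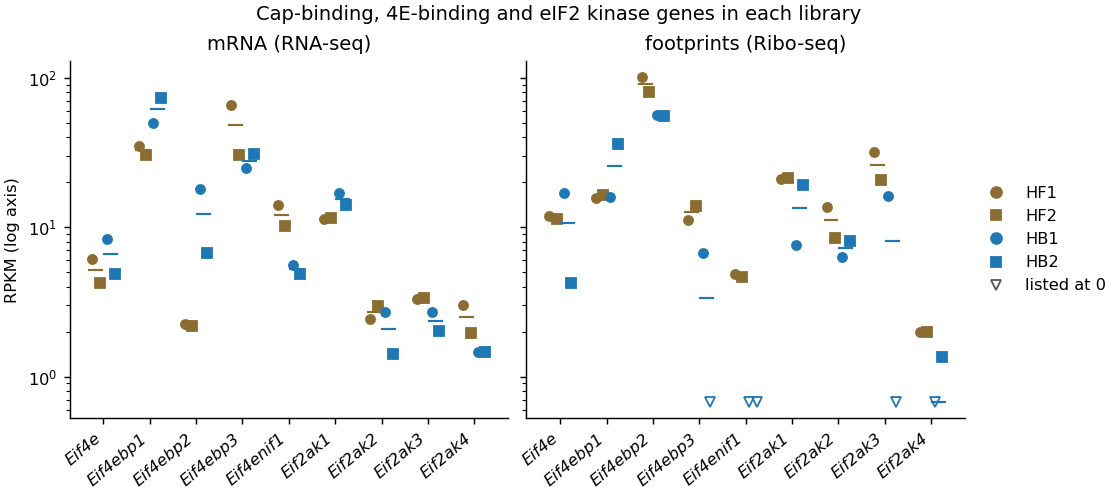
RPKM on a log axis of Eif4e, the eIF4E-binding genes and the eIF2 kinases in each library (points, with lines at group means; open triangles mark values listed at 0), in mRNA on the left and footprints on the right. Eif4ebp2 is at 2.26 and 2.18 RPKM in HF mRNA but at 101 and 80.0 RPKM in HF footprints.

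Across the family no footprint difference passed. Of 63 members tested, 0 were called at an adjusted p under 0.05 by limma, as of all 11190 genes, where the smallest adjusted p was 0.108. At an unadjusted p under 0.05, 1 member was higher and 4 were lower, beside 1.72% and 8.31% of all genes. Voom on recovered reads also called 0. The 4 lower ones were Eif4enif1, Eef1akmt1, Eif2b1 and Eif4b, and the higher one was Eef1akmt2. These 5 were named after their values were seen. Only Eif4b had many reads, 185, 371, 58 and 28 of them, with 124 and 91.1 RPKM in HF and 58.5 and 51.2 RPKM in HB (−0.94 ± 0.31, unadjusted p = 0.0281 by limma). The others had at most 4 reads in each HB library. The median log2 fold change of the 63 was −0.46 against −0.43 over all genes, and both HB libraries were above both HF libraries in 4 members and below in 30, beside 9.07% and 33.2% of all genes. With genes at 0 in both HB libraries set at their bound, the medians were −0.44 and −0.29. Among genes with at least 100 reads in all, the 26 members had a median of −0.41 and the 2905 genes one of −0.35. Shifting the libraries to a common median brought the 63 members to −0.13 and all genes to −0.10, while a common sum brought them to −1.30 and −1.16. The study's thresholds for footprints, a log2 fold change past 1 in size and an unadjusted p under 0.05, gave 1 member higher and 3 lower, beside 1.58% and 7.86% of all genes. Leaving out HF1 or HF2 gave 2 lower by limma in each case, Eef1akmt1 and Eif4enif1, beside 6.26% and 6.25% of all genes.

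The depth of Ribo-seq limited these comparisons. Over 3 reads in all 4 libraries were seen in 36 of 70 members, and 20 had at most 3 reads in both HB libraries. In 7 members both HB libraries were at 0, among them Eef1a2 (4 and 3 reads in HF) and Eif3j1 (1 and 5 reads in HF). Reads on protein-coding genes made up 93.6% and 92.8% in HF and 88.3% and 81.9% in HB, and rescaling to those reads gave a median of −0.39 for the members. For the eIF2 kinases the HB libraries held 0 to 7 reads each. Eif2ak1 footprints were at 21.1 and 21.4 RPKM in HF and at 7.56 and 19.2 RPKM in HB. Eif2ak2 was at 13.7 and 8.53 RPKM in HF and at 6.29 and 8.15 RPKM in HB. All 4 kinases had both HB libraries below both HF libraries, beside 33.2% of all genes, and none passed (unadjusted p of 0.114 to 0.344 by limma).

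Translation efficiency (TE), the ratio of footprint RPKM to mRNA RPKM of the libraries with the same number, was compared as a level between classes. In HF the median over 39 initiation factors was 1.25 in HF1 and 1.27 in HF2, and over 6 elongation factors 1.40 and 1.52, beside 1.07 and 1.02 over all 9455 genes tested. The classes overlapped widely, from 0.264 (Eif2b4) to 4.25 (Eif2s3x) in initiation and from 0.284 (Eef1d) to 1.96 (Eef1a1) in elongation. The eIF2 kinases had 3.73 and 2.36, but 1.96 and 1.57 with Eif2ak3 at the same gene length in both assays, and the eIF4E-binding genes 0.398 and 0.498. Within the eEF1 complex, Eef1a1 had 2.04 and 1.89 footprints per mRNA in HF, Eef1b2 1.31 and 1.51, Eef1g 0.669 and 0.898, and Eef1d 0.293 and 0.276. The HF values of these 4 genes, whose proteins form one complex, did not overlap between genes. In HB they did, with Eef1a1 at 0.699 and 1.26 and Eef1b2 at 1.00 and 1.52. These levels are per length of the gene model and not of the coding sequence. Eef1b2 has a gene model of 1933 bases and a longest coding sequence of 675 bases, and Eef1a1 has 1789 and 1386 bases. The order of these genes thus depends on the length used. In HB the medians were 0.850 and 0.975 for initiation and 0.667 and 0.608 for elongation, beside 0.877 and 0.739 over all genes. The median of the elongation factors was thus above that of the initiation factors in both HF libraries and below it in both HB libraries, while single genes of the classes overlapped in both groups.

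Some TE values depend on the gene model. The length implied by the RPKM steps agreed within 3% between the assays for 55 of 64 members with both lengths. Eif2ak3 had TE values of 9.74 and 6.10 in HF, but its Ribo-seq length of 965 bases is far under its RNA-seq length of 4509 bases, and at equal length its mean of 7.92 would be 1.70. Eif1ax had a mean of 1.07 in HF, and its Ribo-seq length of 4865 bases is longer than its RNA-seq length of 926 bases, so that at equal length it would be 5.64. Eif4ebp2 had the highest ratio of all members, 44.8 and 36.7 in HF and 3.15 and 8.22 in HB, with the same length of 1786 bases in both assays. Its HF ratios rest on the low mRNA level given above.

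Between the groups, TE was lower in HB for most members, and no member passed the adjusted test. Of 60 members tested, 0 were called by limma, as of all 9455 genes, where the smallest adjusted p was 0.328, and the interaction model also called 0. At an unadjusted p under 0.05, 6 members were lower and 0 higher, beside 9.37% and 2.83% of all genes. The interaction model gave 11 lower at that threshold, 18.3% of the members beside 11.6% of all genes. The median log2 fold change of the members was −0.69 against −0.35 over all genes, and 54 of 60 (90.0%) were negative against 63.2% of all genes. On the plain ratio of RPKM, without the pseudocount, the HB mean was below the HF mean in 47 of 60. The share of all genes was not counted for those means, so that 47 of 60 has no background beside it. In 31 members both HB libraries were below both HF libraries and in 1 above, beside 31.9% and 13.2% of all genes. The median of these fold changes was −0.64 in initiation and −0.68 in elongation, while the median over genes of the mean TE level went from 1.29 to 0.910 in initiation and from 1.46 to 0.637 in elongation. These are medians of different quantities over few genes, and the difference between the classes was not tested. TE has the mRNA level as its denominator, so a gene whose mRNA rose has a lower TE at equal footprints, and the 2 comparisons are not independent. All 11 genes with higher mRNA had a negative TE fold change, while their footprint fold change was positive in 5 and negative in 6.

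The 6 members lower in TE at an unadjusted p under 0.05 were Eef1akmt1, Eif4ebp2, Eif6, Eif5a, Eef2 and Eif4a3, named after their values were seen. Eif6 went from 2.61 and 1.76 in HF to 0.564 and 0.399 in HB (−2.08 ± 0.57, adjusted p = 0.334 by limma). Eif5a went from 1.49 and 1.53 to 0.473 and 0.450 (−1.70 ± 0.56, adjusted p = 0.364 by limma). Eef2 went from 1.87 and 1.65 to 0.641 and 0.635 (−1.45 ± 0.53, adjusted p = 0.378 by limma). In these 3 genes both HB libraries were under both HF libraries. The HB values of Eif6 rested on only 9 and 3 footprints. Eef1akmt1, a methyltransferase of eEF1A, and Eif4a3, a helicase of the exon junction complex, rested on 5 and 23 footprints in all. Eif5b, whose mRNA fell and whose footprints overlapped between the groups, was at 0.512 and 0.558 in HF and at 0.731 and 1.63 in HB without passing (0.96 ± 0.64, adjusted p = 0.570 by limma). Without HB1 or HB2, 11 and 3 members were called lower in TE, beside 13.5% and 7.91% of all genes, and without HF1 or HF2 none was. Eif6 and Eif4ebp2 were among them without HB1 (adjusted p = 0.0205 and 0.0101), and Eif4ebp2 again without HB2 (adjusted p = 0.00493).

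**Figure D5:**
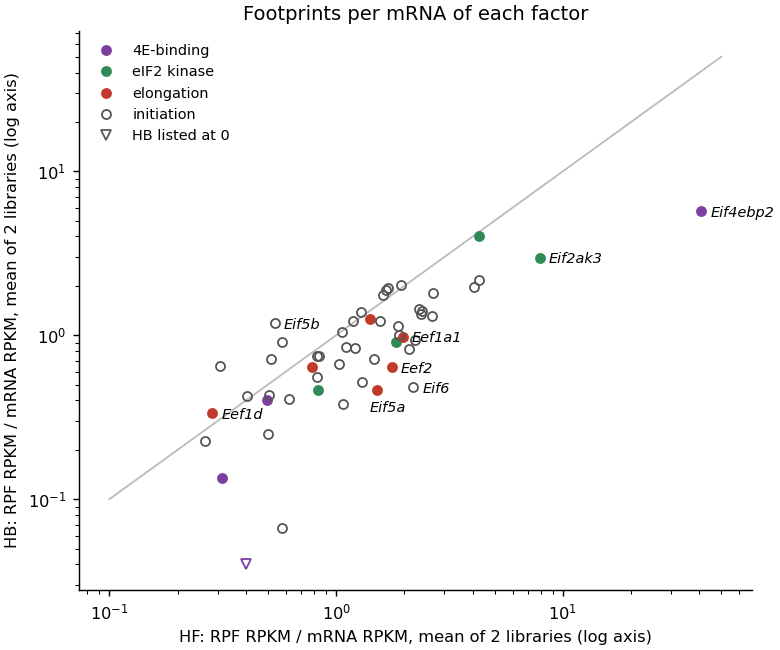
Footprint RPKM over mRNA RPKM of the initiation and elongation factors, eIF2 kinases and eIF4E-binding genes tested, mean of the HF libraries on the x axis and of the HB libraries on the y axis, both log axes, with the line of equal values (the open triangle marks Eif4enif1, whose HB ratio is listed at 0). Eef2 and Eif5a are at 1.76 and 1.51 in HF and at 0.638 and 0.461 in HB without passing the test, Eef1d lies at 0.284 and 0.334, and Eif4ebp2 is the point farthest to the right.

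The enzymes that act on elongation factors were low. Eef2k, the kinase that stops eEF2, was at 0.837 and 2.01 RPKM in HF mRNA and at 1.99 and 0.880 RPKM in HB, with full overlap (0.01 ± 0.32, adjusted p = 0.982 by limma). Eef2kmt, the methyltransferase of eEF2 and the most abundant of these genes, was at 9.06 and 10.6 RPKM in HF and at 5.04 and 7.26 RPKM in HB (−0.61 ± 0.27, adjusted p = 0.116 by limma), and it was called lower without HB2 (−0.84, adjusted p = 0.0304). Eef1akmt1 rose from 2.97 and 2.63 RPKM to 7.96 and 5.49 RPKM (1.01 ± 0.26, adjusted p = 0.0224 by limma), a call lost without HF1, HF2 or HB1 and with voom on recovered reads. Of 5 members listed only in Ribo-seq, RNA-seq held 3 under an older symbol of RefSeq. Eef1akmt2 (as Mettl10) was at 1.59 and 1.12 RPKM in HF and at 3.64 and 1.90 RPKM in HB (0.65, adjusted p = 0.118 by limma), Eef1aknmt (as Mettl13) was between 2.16 and 3.18 RPKM, and Eef1akmt3 (as Mettl21b) was listed at 0.

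The remaining members did not pass in mRNA. The cap-binding paralog Eif4e2 was at 17.3 and 18.6 RPKM in HF and at 21.9 and 20.1 RPKM in HB, and Eif4e3 was between 0.942 and 2.74 RPKM. Eif4e1b was listed at 0 in every RNA-seq library. Eif4a3 was at 16.2 and 16.4 RPKM in HF and at 23.1 and 24.0 RPKM in HB, higher in both HB libraries without passing (0.50 ± 0.24, adjusted p = 0.145 by limma), and it was called with a common median (0.78, adjusted p = 0.0465). Eif2a, a factor for initiator tRNA delivery outside eIF2, was between 8.06 and 14.1 RPKM, and Eif2d, which acts in reinitiation, was at 6.99 and 9.37 RPKM in HF and at 13.9 RPKM in both HB libraries (0.71 ± 0.26, adjusted p = 0.0646 by limma).

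Other genes of the pathway, in 6 lists with 54 symbols, gave 3 higher and 6 lower of 52 tested in mRNA, with a median log2 fold change of −0.06. These are 5.77% and 11.5%, beside 7.92% and 19.1% of all genes. The 3 that rose were all mitochondrial translation factors, of which 3 of 10 rose and 1 fell. Tufm, the mitochondrial counterpart of eEF1A, was at 18.8 and 25.6 RPKM in HF and at 70.0 and 64.1 RPKM in HB (1.57, adjusted p = 0.00575 by limma). Gfm1, the counterpart of eEF2, was at 9.31 and 6.51 RPKM in HF and at 38.1 and 21.9 RPKM in HB (1.77, adjusted p = 0.00666 by limma). The mitochondrial initiation factor Mtif2 fell (−0.99, adjusted p = 0.0369 by limma). Of 12 mTORC1 and S6 kinase genes, 2 fell, Rps6kb2 (−1.37, adjusted p = 0.00837 by limma) and Rps6kb1 (−0.79, adjusted p = 0.0430 by limma), and none rose, so that 16.7% fell beside 19.1% of all genes. Of 7 tested genes of the eIF2 phosphatase and of other regulators of eIF2, Bzw1 and Bzw2 among them, 3 fell. They were Impact, which restrains the kinase GCN2 (−1.17, adjusted p = 0.0119 by limma), the phosphatase subunit Ppp1r15a (−1.07, adjusted p = 0.0207 by limma) and Gcn1l1, which encodes the activator GCN1 of that kinase (−0.84, adjusted p = 0.0393 by limma). None of 12 regulators at the poly(A) tail and cap, 8 release and recycling factors and 3 genes of the hypusine pathway and selenocysteine elongation passed. In footprints none of 51 was called by limma, and 4 were lower (7.84%, beside 8.31% of all genes) and 0 higher at an unadjusted p under 0.05. Gfm1 was among the lower ones, opposite to its mRNA. Its footprints were at 33.7 and 33.2 RPKM in HF and at 18.0 and 16.3 RPKM in HB (−0.93, unadjusted p = 0.0411 by limma). The footprints of Tufm overlapped between the groups.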

How the data were processed

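RNA-seq and Ribo-seq of liver gave 8 libraries, 2 per group and assay. Mapping used FANSe2 on mm10, the values the authors deposited are RPKM for each gene, scaled by each library's own total, and edgeR is named in the submitters' processing notes. Whether RPFs were counted over the coding sequence is not given in the sources used here, but the implied Ribo-seq length exceeded the longest coding sequence in 65 of 67 members. Entries sharing a symbol (4, RNA-seq) were left out. Library totals and whole reads were recovered from the steps between RPKM values (100% of values above 0 within a tolerance of 0.002 reads) and served for the protein-coding scaling, the voom alternative, floors of 3 reads and all read numbers and shares. Genes with a mean of at least 1 RPKM were tested by limma 3.58.1 (R 4.3.3) on log2(RPKM + 1), with group as the only factor, an intensity trend, two-sided p-values and Benjamini-Hochberg adjustment over all genes tested. A gene rose, fell or was called at an adjusted p under 0.05. TE was log2 of (RPF + 1) over (mRNA + 1) for genes in both tests. Fold changes are on these log2 scales and understate low genes. Named are called members (up to 12 a direction and measure), the member with the most mRNA in each role, 19 fixed genes and up to 2 called genes a direction and list. Members, roles and lists were chosen with earlier results of these data known. The scripts were tested on simulated data. Coordinates come from GENCODE M21 (GRCm38), and 68 of 70 members matched. Alternatives covered pseudocount, filters, scaling, variance trend, replicate block, thresholds, libraries and model. Those on protein-coding reads, coding length and a crossed block were chosen after seeing the data. The standard-diet group the methods describe was not analysed here.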

Additional observations from a re-analysis of the deposited data

How the results depend on the processing

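All 14 mRNA calls kept their sign under every alternative run for them, and 5 were lost only without the filter on low values, where 0 members were higher and 0 lower. Counts of members higher in mRNA (11) were 18 with a common median and 4 with the study's thresholds, and 4 to 18 with a library left out. Counts lower (3) were 1 to 7 with a library left out. The median mRNA log2 fold change (0.24) was 0.51 with a common median and 0.16 to 0.37 with a library left out. In footprints the study's thresholds gave 1 higher and 3 lower, and leaving out a library gave 0 to 2 lower. The footprint median (−0.46) was −0.13 with a common median and −1.30 with a common sum. In TE the study's thresholds (a log2 fold change past 2 in size and an unadjusted p under 0.05) gave 4 lower, 6.67% of the members beside 4.60% of all genes, and leaving out a library gave 0 to 11 lower. The TE median (−0.69) was −0.61 with a common median, −1.40 with a common sum, −0.60 with protein-coding scaling and −0.87 with a pseudocount of 0.1, and −0.58 to −0.75 with a library left out. The TE level of initiation factors in HF (1.29, the median of library means) was 1.24 with crossed library numbers and 1.25 to 1.27 with a library left out. With footprints per kilobase of coding sequence it was 2.13 in HF and 1.17 in HB, and that of elongation factors 2.32 and 1.02, against 0.910 for initiation in HB and 1.46 and 0.637 for elongation. Apart from what the alternatives are built to change, the cause was not tested. Replicate numbers showed no pairing of HF with HB (correlation of same-numbered deviations −0.104 in RNA-seq and −0.0138 in Ribo-seq). Between RNA-seq and Ribo-seq, whose libraries TE matches by number, the correlation was −0.00239 in HF and −0.0774 in HB. The matching of libraries in TE thus has no support in these values. With a replicate block 12 members were higher and 4 lower in mRNA, beside 9.06% and 21% of all genes, and 0 in footprints and TE. A crossed block in mRNA, added after seeing the data, gave 13 and 4, beside 10.3% and 23.4% of all genes. Depth limits the footprint results, with 72.5 reads per member over 4 libraries at the median.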
